A study of Mus musculus with 4 samples.

Results

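The genes of the SLAM receptor family lie in a cluster on mouse chromosome 1. Accessible regions were collected around 8 of them: Slamf1, Slamf6, Slamf7, Cd48, Cd84 and Ly9, which are grouped here as T cell members, and Slamf8 and Slamf9, which are known from myeloid cells. A region belonged to a member when it overlapped, by at least 1 bp, the RefSeq gene body or the 20 kb on either side. By this rule 34 of the 64525 deposited regions were assigned, 28 to the T cell members and 6 to Slamf8 and Slamf9. The regions came from ATAC-seq, which marks DNA that a transposase can reach, on CD4+ naive T cells of spleen and pLN from DDX55 KO mice (2 libraries) and WT mice (2 libraries). The labels give no age, strain, promoter or Cre line for the knockout, and leave unsaid if each replicate is its own animal. The deposited list (build mm10) holds 1 set of positions for all 4 libraries together, with no read count or score, so depth per library is unknown, DDX55 KO and WT cells could not be compared, and no error between libraries can be given.

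SLAM receptors are cell surface proteins of the immunoglobulin superfamily. Most of them bind another copy of themselves on a neighbouring cell, and Cd48 instead binds the related receptor encoded by Cd244a. The cytoplasmic tails of most carry tyrosine motifs that recruit the small adaptor SAP, encoded by Sh2d1a, which brings in the kinase Fyn; in T cells this route acts in contacts with B cells and in the development of innate-like T cells. Cd48 is held in the membrane by a lipid anchor and has no tail, and the proteins of Slamf8 and Slamf9 have short tails without these motifs.

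The labelled cell type was checked against marker genes. A region lay within 1 kb of the start for 7 of the 7 naive CD4 T markers that have a start in the RefSeq table, and for 0 of 6 myeloid markers, 0 of 2 B cell markers, 0 of 2 CD8 T markers and 1 of 3 natural killer markers (Eomes). Among all protein-coding genes the share was 53.7%. In the gene body, 10 of 10 naive CD4 T markers and 5 of 10 myeloid markers (Csf1r, Itgam, Adgre1, Cd14 and Spi1) had a region. So did 2 of 3 CD8 T markers, 2 of 6 B cell markers and 1 of 3 natural killer markers. The share of all protein-coding genes with a region in the body was 65.5%, close to that of the CD8 T markers (66.7%). Of the 10 myeloid markers, 2 (Lyz2 and Cybb) had 0 regions in the body and 20 kb around it. Ddx55 itself had 1 region in its body, at its start.

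The sequences around the starts of 5 members are shown to let the accessible bases of T cell members be set beside the starts of Slamf9 and Slamf8. Each window is RefSeq's (GRCm38.p6, the assembly that mm10 names) and runs from 250 bases before to 50 bases after the start, 5′ to 3′ on the strand of the gene. Capitals mark the bases that lay inside a deposited accessible region. The windows of Slamf1 and Cd48 were covered in full, the window of Slamf6 over its last 48 bases, and those of Slamf9 and Slamf8 over 0 bases. The window of the T cell member Cd84, not printed, was also covered over 0 bases, and that of Slamf7, not printed, over 292.

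Slamf1, chr1:171766882-171767181 (+ strand): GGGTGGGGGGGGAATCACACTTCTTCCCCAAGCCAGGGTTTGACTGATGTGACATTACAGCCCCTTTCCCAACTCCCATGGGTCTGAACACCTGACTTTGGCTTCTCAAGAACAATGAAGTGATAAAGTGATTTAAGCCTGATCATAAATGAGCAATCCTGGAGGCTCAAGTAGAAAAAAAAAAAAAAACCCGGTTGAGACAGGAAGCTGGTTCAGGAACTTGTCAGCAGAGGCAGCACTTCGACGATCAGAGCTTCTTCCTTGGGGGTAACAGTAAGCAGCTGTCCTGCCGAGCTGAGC

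Cd48, chr1:171681742-171682041 (+ strand): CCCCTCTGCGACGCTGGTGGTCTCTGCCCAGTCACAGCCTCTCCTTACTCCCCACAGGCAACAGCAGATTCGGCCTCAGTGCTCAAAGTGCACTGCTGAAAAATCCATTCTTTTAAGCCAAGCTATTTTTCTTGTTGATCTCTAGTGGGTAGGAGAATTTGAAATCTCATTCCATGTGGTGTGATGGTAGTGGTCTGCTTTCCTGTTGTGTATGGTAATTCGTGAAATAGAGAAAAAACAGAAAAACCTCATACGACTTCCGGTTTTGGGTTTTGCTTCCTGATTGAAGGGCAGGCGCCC

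Slamf6, chr1:171917212-171917511 (+ strand): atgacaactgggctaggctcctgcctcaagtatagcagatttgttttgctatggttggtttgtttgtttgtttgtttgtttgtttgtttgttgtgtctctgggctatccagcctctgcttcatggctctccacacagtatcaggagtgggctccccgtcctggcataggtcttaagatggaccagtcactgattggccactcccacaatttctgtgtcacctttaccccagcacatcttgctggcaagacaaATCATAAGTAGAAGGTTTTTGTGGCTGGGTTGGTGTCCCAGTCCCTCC

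Slamf9, chr1:172475110-172475409 (+ strand): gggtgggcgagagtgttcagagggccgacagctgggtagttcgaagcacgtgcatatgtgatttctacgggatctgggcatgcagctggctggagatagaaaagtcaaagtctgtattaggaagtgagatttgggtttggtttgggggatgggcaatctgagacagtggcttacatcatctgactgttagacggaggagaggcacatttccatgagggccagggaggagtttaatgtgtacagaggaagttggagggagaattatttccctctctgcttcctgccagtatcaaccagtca

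Slamf8, chr1:172590519-172590818 (- strand): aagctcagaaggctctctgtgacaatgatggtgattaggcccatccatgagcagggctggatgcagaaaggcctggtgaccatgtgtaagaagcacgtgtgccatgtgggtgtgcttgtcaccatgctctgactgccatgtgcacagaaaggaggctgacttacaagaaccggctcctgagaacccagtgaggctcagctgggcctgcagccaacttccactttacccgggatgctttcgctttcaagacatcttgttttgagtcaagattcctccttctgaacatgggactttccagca

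Every T cell member whose start is in the RefSeq table had an accessible region at that start, and neither myeloid member had one. The count was 5 of 5 for Slamf1, Slamf6, Slamf7, Cd48 and Cd84 and 0 of 2 for Slamf9 and Slamf8, beside the 53.7% of 17492 protein-coding genes with a start in the table. Ly9 had no entry in that table. Start windows of 500 bp and 2 kb gave the same 5 members, with 51.9% and 56.3% of all genes. Counted at either annotated end of the gene, a region was found for Slamf1, Slamf6, Cd48, Cd84 and Ly9 and not for Slamf7, Slamf9 or Slamf8 (5 of 8 members, 52.6% of all genes). The tabulated starts of Slamf7 and Slamf9 lie inside their longer gene models. No test was made between the T cell and myeloid members, since neighbouring genes of 1 cluster are not replicates of a condition.

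Slamf1 encodes the founding receptor of the family, a self-ligand on activated and memory lymphocytes. Its start lay inside a region of 439 bp (chr1:171766815-171767253) that reached from 317 bases before the start to 121 bases after it. Cd48, the lipid-anchored ligand, is found on most blood cells. Its start lay inside a region of 693 bp (chr1:171681573-171682265), which began 419 bases before the start and ended 273 bases after it. Slamf7 encodes a self-binding receptor known best from natural killer cells and plasma cells rather than naive T cells. Its region was the widest of the cluster's start regions at 927 bp (chr1:171648315-171649241) and covered 292 of the 300 bases of the promoter window. In these 3 genes the start itself was accessible, and the promoter windows of Slamf1, Cd48, Slamf7 and Slamf6 (4 of 5 T cell members) were overlapped by a region, against 0 of 2 for the myeloid members and 46.8% of all coding windows.

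At Slamf6 and Cd84 the region lay just past the start. Slamf6 encodes Ly108, a self-ligand on T, B and natural killer cells. Its start region was 162 bp wide (chr1:171917464-171917625) and began 2 bases downstream of the start, which left the bases before the start outside any region. Of all 9873 regions within 1 kb of a coding start, 97.9% were at least as wide as that one; their median width was 751 bp. Cd84 encodes a self-ligand of lymphocytes and platelets. Its region was 919 bp wide (chr1:171840048-171840966) and began 351 bases downstream of the start, so it touched 0 of the 300 bases of the promoter window. With regions of 300 bp or more alone, 4 members had a region at the start, and Slamf6 was the member that dropped out.

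**Figure D1:**
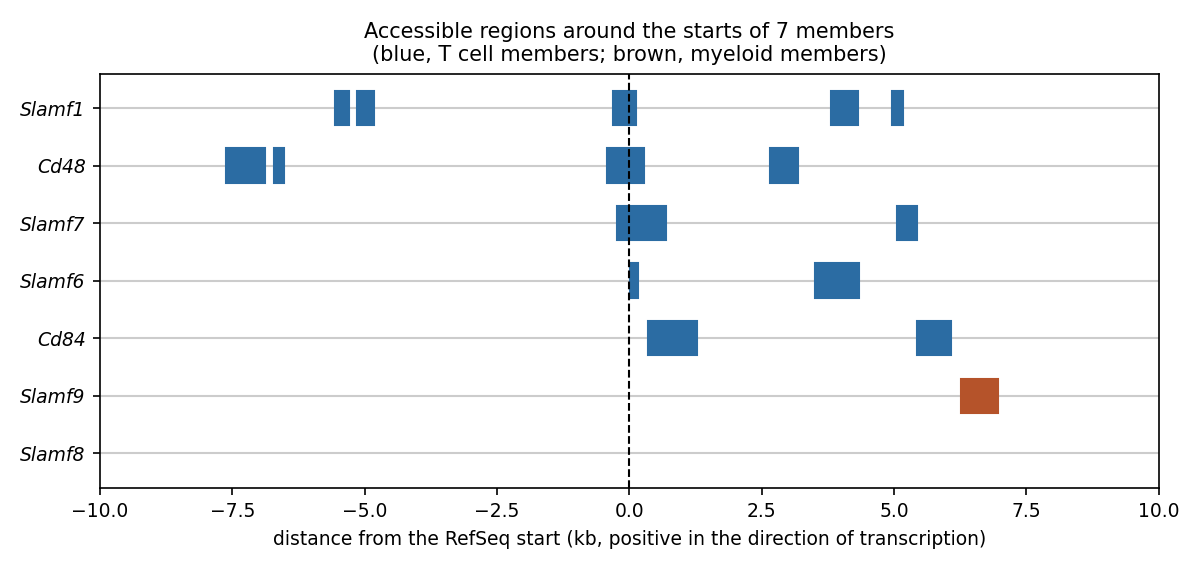
Accessible regions within 10 kb of the RefSeq start of 7 members, drawn to scale in the direction of transcription; each bar is 1 region, blue for T cell members and brown for myeloid members, and Ly9 is not drawn. The 5 T cell members drawn each have a region within 1 kb of the start and another 2 to 6 kb downstream. Slamf9 has a single region 6.27 kb downstream, and Slamf8 has none.

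The 5 T cell members with a tabulated start shared a further feature that was noticed only after their positions were seen. Ly9, without a tabulated start, had only 1 region in its body and so no second region inside the gene. Each of the 5 had another region inside the gene beginning 2.65 to 5.44 kb downstream of the start: 2.65 kb at Cd48, 3.5 kb at Slamf6, 3.81 kb at Slamf1, 5.05 kb at Slamf7 and 5.44 kb at Cd84. At Slamf6 this downstream region (chr1:171920965-171921794, 830 bp) was wider than the one at the start. Slamf9 and Slamf8 had 0 of 2 in the interval from 2 to 6 kb. For Slamf9 most of that interval lies beyond the end of the gene, and its next region began 6.27 kb past the start. Of the 11154 coding starts with a region within 1 kb, 12.0% also had a region 2 to 6 kb downstream, and over all coding starts the share was 11.3%. The interval was chosen to hold the members' values, so their count is a description only.

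All member promoters were poor in CpG, the base pair step that is dense in the promoters of widely used genes. The 7 windows held between 1 CpG (Slamf6) and 7 CpG (Cd48), against a median of 13 over 21263 coding promoter windows. Slamf7 and Cd84 had 3 each, Slamf1 had 4, Slamf8 had 4 and Slamf9 had 6. The G and C share ranged from 39% in Slamf7 to 52.3% in Slamf8, all below the median of 56.3% for coding windows. Among the 8184 coding windows with at most 7 CpG, 15.2% had a region within 1 kb of the start, against 75.8% of the 13079 windows with more. Beside that 15.2%, the T cell count was 5 of 5 and the myeloid count 0 of 2. The cut of 7 CpG is the highest count among the member windows, so these counts are a description only. Up to that cut the share rose from 6.29% at 0 to 1 CpG to 32.1% at 6 to 7 CpG, the bin of Cd48 and Slamf9. A region overlapped the promoter window itself in 9.26% of the CpG-poor windows. A region 2 to 6 kb downstream was found for 20.1% of the 1245 CpG-poor starts that had a region within 1 kb.

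**Figure D2:**
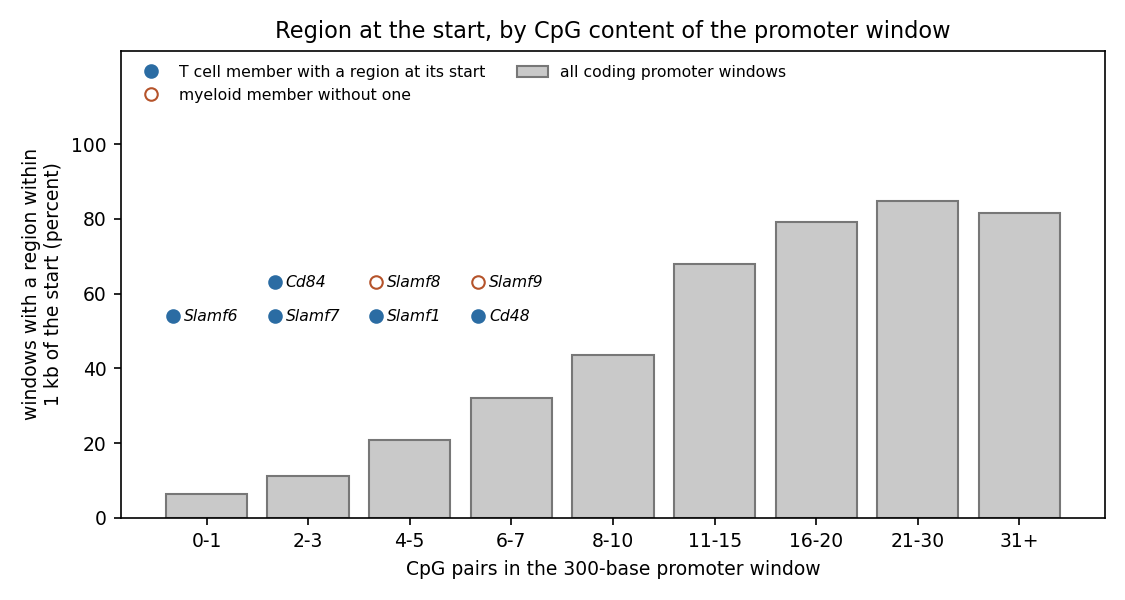
Share of coding promoter windows with an accessible region within 1 kb of the start (percent, grey bars), by the number of CpG in the 300-base window; the named points stand over the bin of each member, filled where the member has a region at its start, and their height carries no value. The share is 6.29% at 0 to 1 CpG and 84.7% at 21 to 30 CpG, and all 7 members lie in the bins up to 7 CpG.

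Short motifs were searched on both strands of the 7 member windows. The AP-1 letters TGANTCA, of factors induced by T cell activation, were found in Slamf7, Cd84 and Slamf8. That is 3 of 7 windows, beside 6.99% of all coding windows. The match in Slamf7 lay 42 bases before the start, inside its region. The windows of Cd84 and Slamf8 had 0 bases in a region, so all matches in them lay outside any region. The ETS letters CCGGAAG were found in Cd48 alone of the members (11.6% of all windows), just past its start and inside its region. The PU.1-type letters GAGGAAGT, of an ETS factor of myeloid and B cells, were found in Slamf9 alone of the members (3.13% of all windows), which had no region there. Slamf8 held GGGANTTTC of NF-kB (1.08% of all windows), Slamf8 and Cd84 held GAAANNGAA of interferon regulatory factors (8.15%), and Slamf1 held CACCTG of E proteins (19.7%). The TATA box TATAAA, the GC box GGGCGG, the RUNX letters TGTGGTT, the TCF/LEF letters CTTTGAA or CTTTGAT, the CRE letters TGACGTCA and the GATA letters AGATAA were in 0 of the 7 windows; they were in 12.6%, 46.2%, 4.71%, 7.57%, 2.23% and 9.65% of all coding windows in that order. All these shares are over all coding windows, most of which hold more CpG than the member windows. The GC box, CRE and ETS letters each contain a CpG, and shares among CpG-poor windows were not counted. A match gives letters only and does not show that a factor binds.

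The T cell and myeloid members also differed over the gene bodies, a count that includes the start regions. The T cell members held 17 regions in their bodies, 2.83 ± 1.72 per gene (mean ± SD over 6 genes, which is a spread between genes). Of these 17, 5 were the regions at the starts. Slamf8 and Slamf9 held 0 in their bodies. Regions covered 3.03% (Cd84) to 6.32% (Slamf7) of the body of a T cell member. Of all 21887 protein-coding genes, 65.5% had a region in the body. The median gene had 1 and the mean over all genes was 1.69. In the wider window, with the flanks of 20 kb, all 8 members had a region (82.9% of all genes). Over all protein-coding genes the median there was 3 and the mean 3.27. The T cell members had 4.83 ± 2.48 regions (SD over 6 genes) and the myeloid members had 2 (Slamf8) and 4 (Slamf9), a mean of 3. The difference between the T cell and myeloid means was 1.83 regions per gene in the wider window and 2.83 in the bodies. The counts in the wider window overlapped, at 2 to 9 for the T cell members and 2 to 4 for the myeloid members. With 50 kb on either side the means were equal, at 8.5 each.

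**Figure D3:**
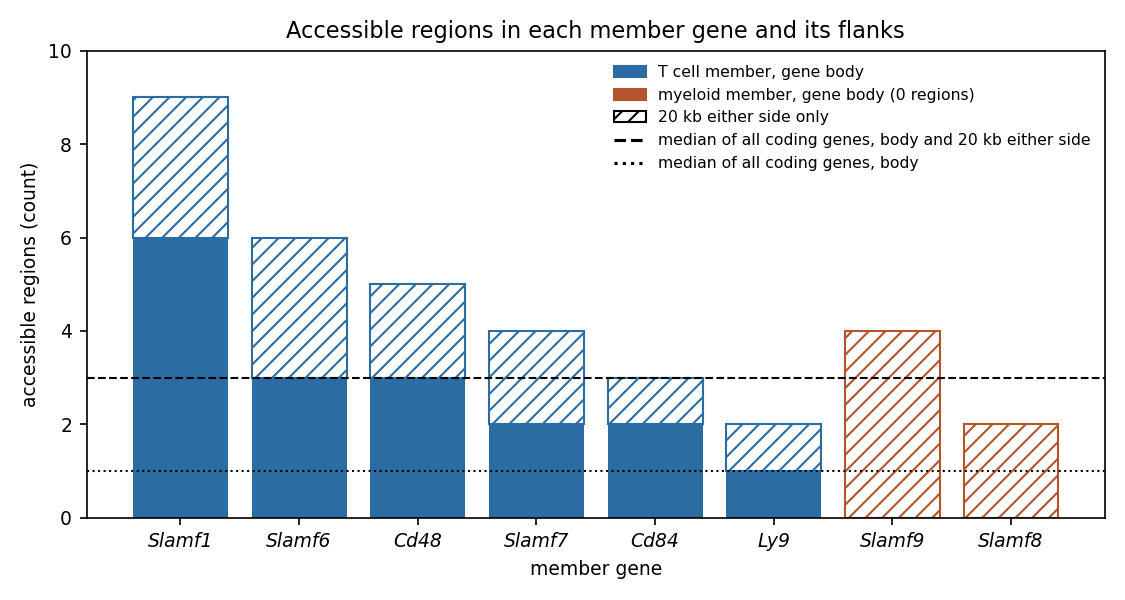
Accessible regions in each member's gene body (solid) and only in the 20 kb on either side (hatched), as counts from the pooled list, with the medians of all protein-coding genes for the body and flanks together (dashed, 3) and for the body (dotted, 1). The T cell members (blue) have 1 to 6 regions in the body; Slamf9 and Slamf8 (brown) have 0 there and 4 and 2 in the flanks.

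Slamf1 had the most regions of the 8 members. It held 6 regions in its 34.1 kb body and 9 in the wider window, where 5.58% of all protein-coding genes had at least 9; of the 1000 genes closest to it in length, 2.3% had as many. From 5.55 kb before the start to 21.9 kb after it, 8 regions lay within 27.4 kb (chr1:171761579-171788982), with no gap over 6.08 kb. The median gap between neighbouring regions of the genome was 18.5 kb. The ends of this span were set by the regions seen, so the gaps are a description only. The 8 regions comprised a pair of 252 and 322 bp upstream, the start region, and 5 regions of 204 to 643 bp inside the gene. The widest of those inside the gene (643 bp) lay 15.2 kb past the start. The ninth region, of 331 bp, lay 14.5 kb beyond the far end of the gene.

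Slamf6 and Cd48 followed. Slamf6 had 3 regions in its 31.5 kb body and 6 in the wider window (16.3% of all genes had at least 6). Inside the gene, the third region (747 bp) lay 21.6 kb past the start, and beyond the far end there were regions of 216 bp and 476 bp at 5.77 kb and 17.2 kb. A region of 253 bp lay 17.6 kb before Slamf6, over the pseudogene Gm52945, and was the 1 region shared by the windows of Slamf6 and Cd84. Cd48 had 3 regions in its 24.0 kb body and 5 in the wider window (25% of all genes had at least 5). Its regions inside the gene past the start region were 543 bp wide at 2.65 kb and 186 bp wide at 17.1 kb from the start. A pair of regions, of 730 bp and 191 bp, lay 6.89 and 6.52 kb before its start, between Cd48 and Slamf7. The wider of the pair was at least as wide as 84.8% of all regions, and no tabulated protein-coding start lay nearer to it than that of Cd48.

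Slamf7, Cd84 and Ly9 had fewer regions. Slamf7 had 2 regions in its 20.6 kb body and 4 in the wider window, counts that 33.4% and 37.6% of all genes reached. Its second region inside the gene was 377 bp wide, and its flanking regions were narrow, at 224 bp (4.26 kb beyond the lower-coordinate end) and 141 bp (8.01 kb beyond the higher one). Cd84, the longest member at 51.0 kb, had 2 regions in its body, both within 6.07 kb past the start. The next 53.8 kb held none, a stretch that took in 88.1% of the gene. Of all genes, 33.4% reached the body count of Cd84 and 52.5% its 3 regions in the wider window. Among the genes closest to Cd84 in length, 56.2% had as many in the body and 66.1% in the wider window. Per 100 kb of window Cd84 had 3.3 regions and Slamf1 had 12.2. Ly9, which encodes a self-ligand of T and B cells, had 1 region in its body, 795 bp wide (chr1:171606833-171607627), over its higher-coordinate end. The remaining 96.9% of its body lay in a stretch of 29.4 kb without a region, and the other region of its window, 128 bp wide, lay inside the neighbouring Cd244a. Of all genes, 65.5% reached the body count of Ly9 and 67.8% its 2 regions in the wider window, a window count that Slamf8 also had. Among the genes closest to Ly9 in length, 74.8% had as many in the body and 72.9% in the wider window. The counts of Cd84 and Ly9 in the wider window were thus common among coding genes. With flanks of 20 kb, the order of the T cell members by count was Slamf1, Slamf6, Cd48, Slamf7, Cd84 and Ly9; neighbours in this order differ by 1 to 3 regions, and no error between libraries can be set beside these steps. The order changed with the flank: with 10 kb Cd48 had 5 and Slamf6 had 4, and with 50 kb Slamf7 had 10 and both Slamf6 and Cd48 had 8.

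Slamf9 and Slamf8 each lay whole inside a stretch without regions. Slamf9 encodes a receptor found on macrophages and plasmacytoid dendritic cells, and Slamf8 one that restrains the oxidative burst of macrophages. Slamf9 (19.9 kb) sat in a stretch of 25.7 kb without a region. Its tabulated start, which lies inside the gene model, was 6.27 kb from the nearest region. Of all coding genes with a start, 36.3% reached or passed this distance. The lower-coordinate end of the Slamf9 gene model was 2.61 kb from a region. Slamf8 (9.5 kb) and its neighbour Fcrl6 sat in a stretch of 69 kb without a region, and the start of Slamf8 was 27.1 kb from the nearest one (18.5% of genes reached or passed this). Of the 1000 genes closest in length, 24.3% for Slamf9 and 36.6% for Slamf8 also had 0 regions in the body, so an empty body was not rare at these lengths.

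The 6 regions in the windows of the myeloid members lay in or nearer to other genes, with 1 exception. For Slamf9, 3 of 4 overlapped Igsf9, among them the region of 701 bp at the Igsf9 start, and the other, of 351 bp, lay 2.61 kb beyond the lower-coordinate end of Slamf9 and 19.4 kb before its start. For Slamf8, both regions (154 and 533 bp) overlapped Vsig8. Between Slamf9 and Slamf8 lie 4 protein-coding genes, Igsf9, Tagln2, Cfap45 and Vsig8; all 4 had a region in the body and 3 of them had one at the start, Vsig8 being the exception.

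The surroundings of the myeloid members were dense in regions. The stretch from Slamf9 to Slamf8 (132 kb) held 14 regions, 106 per Mb, of which 9 overlapped a protein-coding gene and 5 a long noncoding RNA gene alone. The stretch of the T cell members, from Ly9 to Slamf6 (360 kb), held 25 regions, 69.4 per Mb, and the 510 kb between these stretches held 54.9 per Mb. Chromosome 1 as a whole held 24.7 per Mb and the 19 autosomes 26.3 per Mb. In the T cell stretch, 17 of 25 regions overlapped a member gene. The stretch was bounded by members and their bodies fill a large part of it, so this count is a description only. The share of the stretch inside member bodies was not set beside it. Tma7-ps, the only other protein-coding entry within the stretch, had 0 regions. The largest stretch there without a region, 62.3 kb, ran from inside Cd48 towards Slamf1 and took in 24.9% of Cd48.

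**Figure D4:**
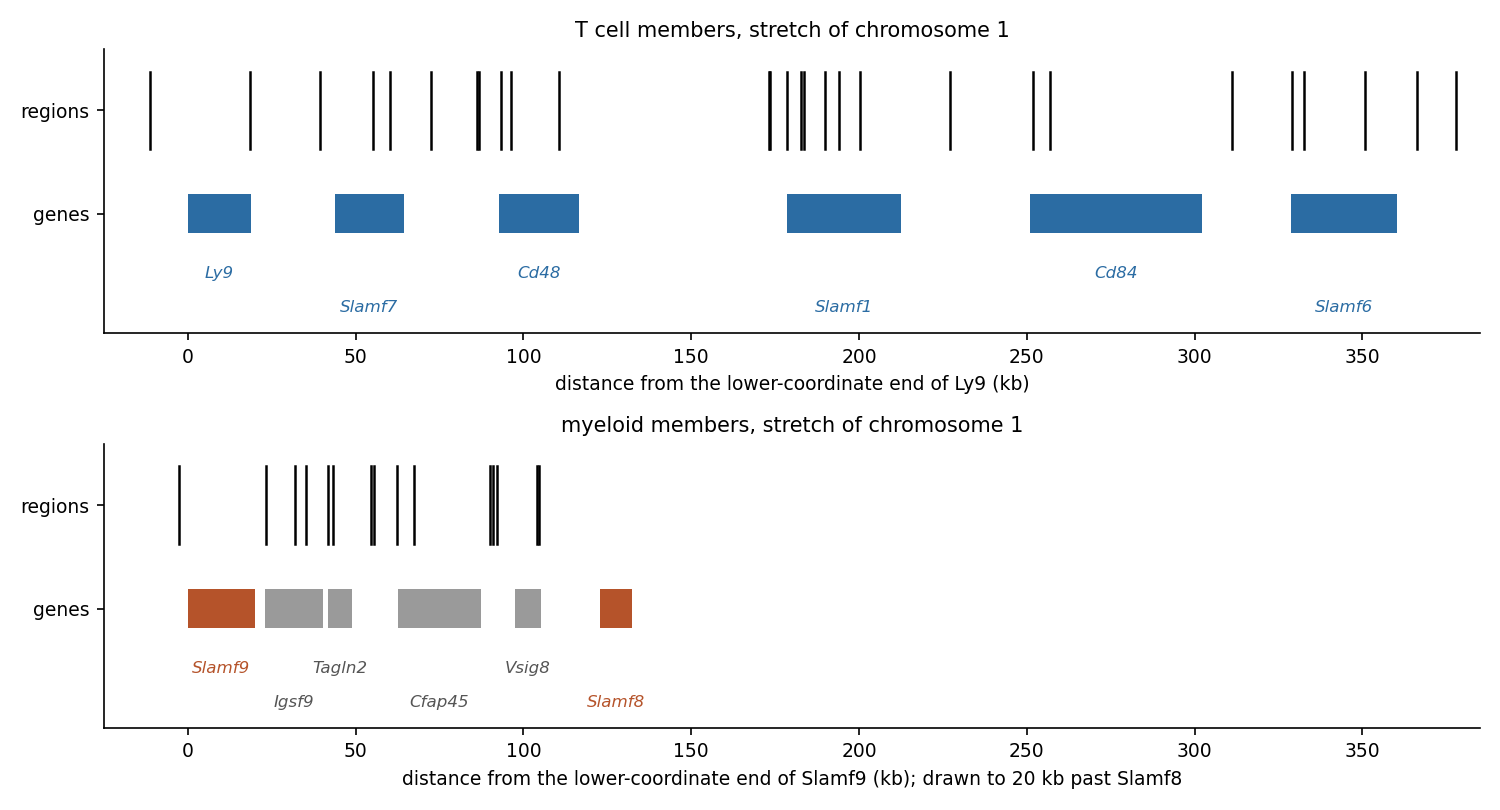
Map of the stretch of chromosome 1 with the T cell members (upper panel) and the myeloid members (lower panel), on the same scale in kb; each black line is the middle of 1 accessible region, blue and brown bars are the member genes, and grey bars are other protein-coding genes between the outermost members (noncoding genes and Tma7-ps are not drawn). Regions fall inside every T cell member, and those in the lower panel fall outside Slamf9 and Slamf8, most of them over or beside Igsf9, Tagln2, Cfap45 and Vsig8.

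The remaining genes of SLAM signalling were described from a list of 14. Of the 11 with a start in the table, 8 (72.7%) had a region within 1 kb of it, beside the 53.7% of all genes; 12 of 14 had a region in the body, beside 65.5% of all genes, and several of the listed genes are long (Fyn 196 kb, Zbtb16 184 kb, Prkcq 129 kb). Cd244a, the receptor for Cd48 and the neighbour of Ly9, had 2 regions in its body, one of them 218 bp wide and ending 88 bases before its start. Sh2d1a, the X-linked gene of the adaptor SAP, had 1 region in its body and 2 in the wider window; its start is not in the table, and the region lay at an annotated end. The genes of the related adaptors Sh2d1b1 and Sh2d1b2, which act mainly in natural killer and myeloid cells, had 0 regions in the body, and their starts were 18.0 and 13.9 kb from the nearest region. Fyn and Lck, the kinases, had 14 and 4 regions in the body, and Prkcq, a T cell protein kinase C, had 16. The phosphatase genes Ptpn11 and Inpp5d had a region at the start, with 2 and 7 in the body, whereas Ptpn6 had its nearest region 1.75 kb from the start, with 3 in a body of 18 kb and 9 in the wider window. Vav1 and Pik3r1, of downstream signalling, had 5 and 8 in the body, and Cd2, a related adhesion receptor that also binds Cd48 in mice, had 3. Zbtb16, the factor of innate-like T cells, had 4 in a body of 184 kb and none at its annotated ends.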

How the data were processed

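ATAC-seq libraries from DDX55 KO (2) and WT (2) naive CD4 T cells are covered by 1 deposited list of accessible regions, cited in the labels of all 4. Build mm10 is named in the submitters' processing notes, as are MACS3 3.0.0b1, SAMtools 1.15.1, Bowtie2 2.5.08 and fastp 0.12.4, without roles or settings. For transposase offset, duplicates, peak threshold and joining of libraries, the steps were not given in the sources used here. Positions only were deposited, so the planned comparison of DDX55 KO with WT was not analysed here.

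Starts and ends were converted to 1-based positions. Gene bodies came from the RefSeq table of GRCm38.p6, and starts, strands and promoter windows from RefSeq's promoter table of the same assembly, which holds 17492 of the 21887 protein-coding genes of the assembled chromosomes; 7 of 8 members matched, and exons were not used. Overlap meant at least 1 bp. Because the list is pooled, values are counts with no test, set beside all protein-coding genes and, for length, the 1000 closest in length. Counting was tested on simulated regions. The genes named are the 8 members, the SLAM pathway list, cell type markers, Ddx55, and genes at regions described. The members and lists were chosen with earlier results of these data known. Python 3.11.15, numpy 2.4.6 and pandas 2.3.3 were used. Alternatives changed the flank, start window, overlap rule, region width, merging, assignment and members.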

Additional observations from a re-analysis of the deposited data

How the results depend on the processing

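The higher mean region count of the T cell members over Slamf8 and Slamf9, 1.83 per gene, depended on the flank. The difference was 2.83 in gene bodies alone, 3.17 with 10 kb on either side and 0 with 50 kb, and 0.833 with regions of 300 bp or more. Leaving out 1 member at a time gave 0.833 to 2.83: 0.833 without Slamf8, 2.83 without Slamf9 and 1 without Slamf1. Counting the middle of the region, merging, and giving each region to the nearest member moved it by less than 1.5 times. Per 100 kb of window, a different unit, the means were 6.94 for the T cell members and 5.36 for Slamf8 and Slamf9. The 34 distinct regions became 17 in bodies alone and 21 at 300 bp or more. At 300 bp or more the density was 42.9 per Mb from Ly9 to Slamf8, against 66.8, and 44.4 in the T cell stretch, against 69.4. Wider or narrower flanks change the number of regions counted by construction. That does not fix how the difference between T cell and myeloid members changes. The cause of its change with the flank was not tested, nor was the cause of the changes with region width. The number of members with a region at the start was 5 with windows of 500 bp, 1 kb and 2 kb, and 4 with regions of 300 bp or more. Other positions count other members: 5 had a region at either annotated end (Ly9 in, Slamf7 out) and 6 anywhere in the body. At 50 kb Slamf1 and Slamf9 had 11 regions each, so that the order of members also changed with the flank. Of 56 alternative counts for single members, 35 stayed within 1.5 times and 21 moved further.

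No paired analysis was possible because the deposited list carries no value per library, so the replicate numbers of DDX55 KO and WT could not be used, and that fit was not run. Depth per library is unknown, and a stretch without a region shows only that no region was listed there.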
